A study of Mus musculus with 2 samples.

Results

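The miRNAs described here are those of the miR-17-92 and miR-106b-25 clusters and of miR-106a, measured in G2N2C, a cell line of mouse basal cell carcinoma (BCC). Members were taken by name from the authors' fold change table as mouse miRNA probes of miR-17, miR-18a, miR-19a, miR-19b, miR-20a, miR-92a, miR-106a, miR-106b, miR-93 and miR-25, either arm and no mismatch probes. This gave 15 members, each with 1 probe, among 373 mouse miRNAs with a fold change. Of the 15, 10 are guide arms, the strand that a hairpin mainly loads into Argonaute, and 5 are passenger arms, marked with an asterisk in the array's names.

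The study compared cells transfected with Stealth-D3, an interfering oligonucleotide against the type 3 deiodinase (D3, an enzyme encoded by Dio3 that inactivates thyroid hormone), with cells transfected with Stealth-ctr, its control. Both groups were cultured in low calcium with 8% chelated serum and keratinocyte growth factor, and harvested 48 h after transfection. RNA of 3 experiments per group was pooled, so each group is 1 pool of 1 cell line. Both pools were hybridised together on 2 arrays of locked nucleic acid probes, read in 2 colours, with Cy3 on the D3-interfered pool on array 1 and the dyes exchanged on array 2. These arrays count as 1 replicate per group: every SD given here is technical, taken over both arrays, there is no test between the groups, and precision is limited by the number of arrays. Dio3 itself was not analysed here, and how far it was reduced is not known from these data. Of 5 keratinocyte and epithelial marker miRNAs (miR-203, miR-205, miR-200c, miR-141 and miR-200b), 5 lay above an average log2 intensity of 6.99, the brightness up to which the authors' table holds probes without a fold change, at 7.16 to 11.9. The liver marker miR-122 lay below that limit, as did miR-142-3p and miR-142-5p of the 4 blood cell markers with a fold change. Above it lay 3 of 4 fibroblast and smooth muscle markers, 2 of 3 muscle markers and 2 of 2 neuron markers, so brightness alone does not mark the cell type. Markers also differed between the pools: 3 of the 5 keratinocyte and epithelial markers passed the rule of size given below on the negative side, namely miR-200b (-0.81), miR-200c (-0.98) and miR-141 (-1.03), and 1 of the 4 fibroblast and smooth muscle markers passed on the positive side, miR-143 with 2.06. The same miRNAs passed with the trend removed and reached 1.5-fold in the authors' deposited table, and no marker of the other types did. Their part in the values below was not tested.

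The miR-17-92 cluster is a polycistron, 1 primary transcript from which several miRNAs are cut. Its transcription is driven by Myc and E2F factors, and its miRNAs repress brakes on the cell cycle and on survival, among them Cdkn1a and Bcl2l11. The miR-106b-25 cluster is a paralog in an intron of Mcm7, a gene of DNA replication, and miR-106a belongs to a further paralog on the X chromosome. BCC is driven by Hedgehog signalling, and in mouse medulloblastoma, another tumour of this pathway, miR-17-92 is known to cooperate with it.

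In GRCm38.p6 the miR-17-92 cluster lies at chr14:115043671-115044506 on the plus strand, with 6 hairpins in 836 bp. RefSeq's Mir17hg, a lncRNA at chr14:115044390-115046728, holds 1 of them in its annotated span. The miR-106b-25 cluster lies at chr5:138165321-138165818 on the minus strand, with 3 hairpins in 498 bp, all inside the span of Mcm7 (chr5:138164583-138172111). The paralog on the X chromosome, miR-106a-363, spans chrX:52741693-52742567 on the minus strand and holds 6 hairpins. miR-19b and miR-92a have a second hairpin there with the same mature sequence, so their signal cannot be assigned to 1 cluster.

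The mature sequences of the 10 guide arms are shown because the results turn on how alike they are. They are RefSeq's, build GRCm38.p6, written 5′ to 3′, with the seed, bases 2 to 8, in capitals; the seed is the part that pairs with targets. RefSeq sequences were matched by name for 14 of the 15 members, miR-19a* being the other. The probes' own sequences were not used here.
miR-17: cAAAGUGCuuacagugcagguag
miR-20a: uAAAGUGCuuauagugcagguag
miR-106a: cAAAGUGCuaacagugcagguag
miR-106b: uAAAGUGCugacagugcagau
miR-93: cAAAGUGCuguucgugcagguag
miR-18a: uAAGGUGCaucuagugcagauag
miR-19a: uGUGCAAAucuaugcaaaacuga
miR-19b: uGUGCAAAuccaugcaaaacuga
miR-92a: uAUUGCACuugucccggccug
miR-25: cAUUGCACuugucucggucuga
The seeds form 4 groups. The miR-17 seed (AAAGUGC) is shared by 5 members from all 3 clusters, the miR-19 seed (GUGCAAA) by miR-19a and miR-19b, and the miR-92 seed (AUUGCAC) by miR-92a and miR-25, while miR-18a has a seed of its own (AAGGUGC).

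Values are log2 ratios of the pools, with base 2 assumed for the deposited ratios. Array 1 was given the opposite sign so that both arrays run the same way. Which dye is the numerator of the deposited ratios is not given in the sources used here. With red (Cy5) as numerator, positive values mean more of a miRNA in the D3-interfered pool, and with green (Cy3), more in the control pool. A positive value is in either case the side of miR-21, which had 3.08 and 4.12 on the arrays, and is the positive sign of the authors' deposited table. The deposited ratios rose with brightness before turning. Across the 373 miRNAs, which share arrays and pools, they correlated with average intensity with r = 0.52 on array 1 and 0.66 on array 2. The turned arrays had r = -0.08 as deposited, and 0.44 once a smooth trend on intensity was removed from each array. Values with that trend removed are therefore given beside the deposited ones.

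Few members of the clusters reached 1.5-fold between the pools. Technical SDs ran up to 0.89, for miR-19b, so a value under 1.5-fold does not show that levels were alike. A miRNA passed the rule of size used here if its arrays had the same sign and its mean reached 1.5-fold (0.585 on the log2 scale). Of the 15 members 1 passed, miR-106a, on the positive side, where 12.1% of all mouse miRNAs passed, 8.85% on the positive and 3.22% on the negative side. After removal of the trend 0 of 15 passed, beside 13.4% of all, 8.04% positive and 5.36% negative. None (0 of 15) reached 1.5-fold in the authors' deposited table, beside 9.38% of all, 3.75% positive and 5.63% negative. Without replicates no p-value stands behind these counts of 0. The median was 0.08 both for the members and for all 373 miRNAs, and members ran from -0.25 for miR-106b* to 0.63 for miR-106a. The median was 0.04 after removal of the trend, beside 0.02 for all, and the authors' deposited table gives 0.02, beside -0.02. In that table members run from -0.34 for miR-106b to 0.26 for miR-106a.

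**Figure D1:**
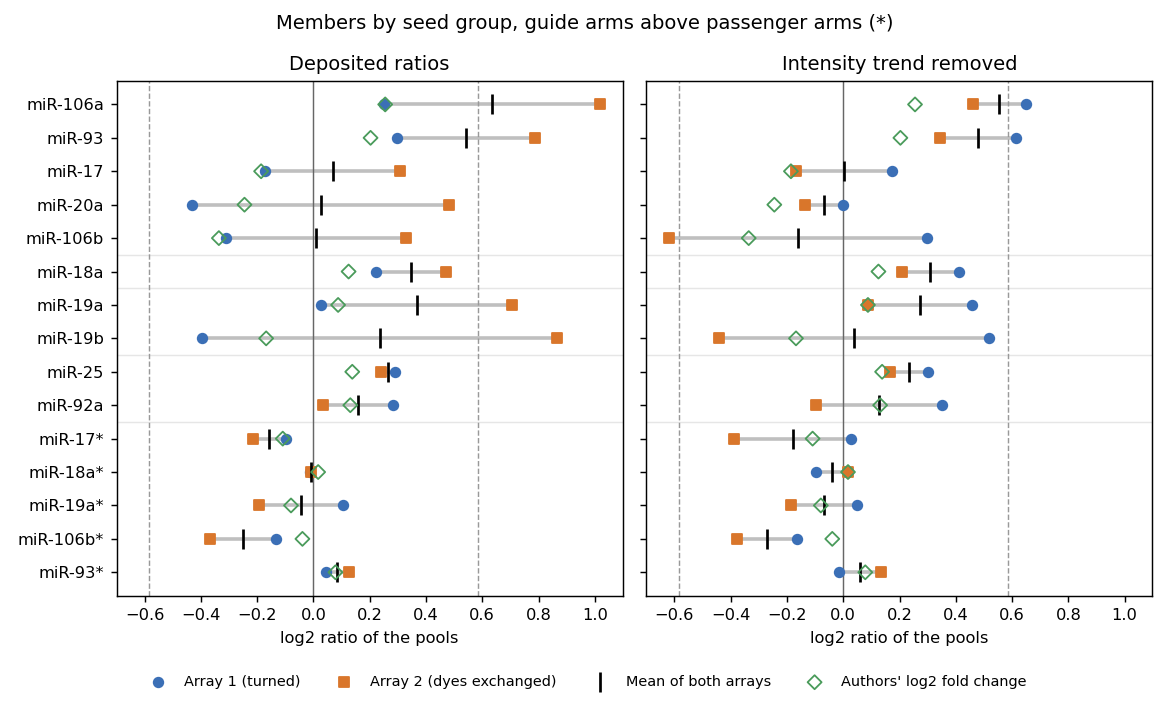
Log2 ratio of the pools for the 15 members, grouped by seed with the passenger arms at the bottom, as deposited (left) and with the intensity trend removed (right). Circles are array 1 after turning, squares array 2, black ticks their mean, diamonds the authors' log2 fold change, and dashed lines mark 1.5-fold. miR-106a, miR-93, miR-18a, miR-19a and miR-25 lie right of 0 on both arrays in both panels, and no member but miR-106a has a mean past a dashed line.

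The guide arms with the miR-17 seed repress Cdkn1a and E2f1, and they split into a higher pair and a lower trio. miR-106a, from the X-linked paralog, had 0.25 on array 1 and 1.02 on array 2, with a mean of 0.63 ± 0.54 (technical SD, 2 arrays), or 1.55-fold. Its trend-removed values were 0.65 and 0.46, mean 0.55 ± 0.13, just short of the threshold, and the authors' deposited table gives 0.26. Its passing thus rested on array 2, though its sign was positive on both arrays and in all 3 sets of values.

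miR-93, the middle miRNA of the miR-106b-25 cluster, had 0.30 and 0.79 on the arrays, with a mean of 0.54 ± 0.35. Removal of the trend gave 0.61 and 0.34, mean 0.48 ± 0.19, and the authors' deposited table gives 0.20. It stayed under 1.5-fold in each set of values, with both arrays positive.

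miR-17, the first miRNA of its cluster, had -0.17 and 0.31, with a mean of 0.07 ± 0.34. It had 0.17 and -0.17 with the trend removed, a mean of 0.001 ± 0.24, and the authors' deposited table gives -0.19. The arrays thus differed in sign both before and after the trend was removed. miR-20a, which differs from miR-17 by 2 of 23 bases, had -0.43 and 0.48, with a mean of 0.03 ± 0.65. Its trend-removed values lay closer, at -0.001 and -0.14, mean -0.07 ± 0.10. miR-106b, the first miRNA of its cluster, had -0.31 and 0.33, with a mean of 0.01 ± 0.45, and 0.30 and -0.62 with the trend removed, mean -0.16 ± 0.65. The 3 miRNAs had means within 0.06 of each other, with arrays on both sides of 0 as deposited.

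In the authors' deposited table miR-106b has the lowest fold change of the members, -0.34, with an unadjusted p of 0.0223, and miR-20a follows with -0.245 and 0.0341. These 2 are the members whose p lies under 0.05 there, where 18.9% of the mouse probes do. What served as replicates for these p-values is not stated. Benjamini-Hochberg adjustment over the 1677 probes with a fold change gave 0.215 for miR-106b and 0.286 for miR-20a, so neither held. The table places both on the side opposite miR-21, whereas the deposited ratios place their means at 0.01 and 0.03.

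Differences between members within an array leave out what all probes of that array share. These pairs were compared after the values were seen, so they are descriptions. Of the 10 pairs within the miR-17 seed, 6 set miR-106a or miR-93 against miR-17, miR-20a or miR-106b. In 6 of these 6 the first was higher on both arrays, by 0.42 to 0.73 on array 1 and by 0.30 to 0.71 on array 2. With the trend removed the same 6 differences were again positive on both arrays, with means from 0.48 to 0.71, and in the authors' deposited table they are 0.39 to 0.59. The split is thus found in all 3 sets of values, though these come from the same 2 arrays. The pairs set the higher means of this seed against the lower ones, so positive differences in the deposited mean followed from that choice. By the rule of size 2 of the 6 differences passed as deposited and 3 with the trend removed. Of the other 4 pairs, 0 had the same sign on both arrays as deposited, and 1 did with the trend removed, miR-106a minus miR-93 with 0.04 and 0.12.

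**Figure D2:**
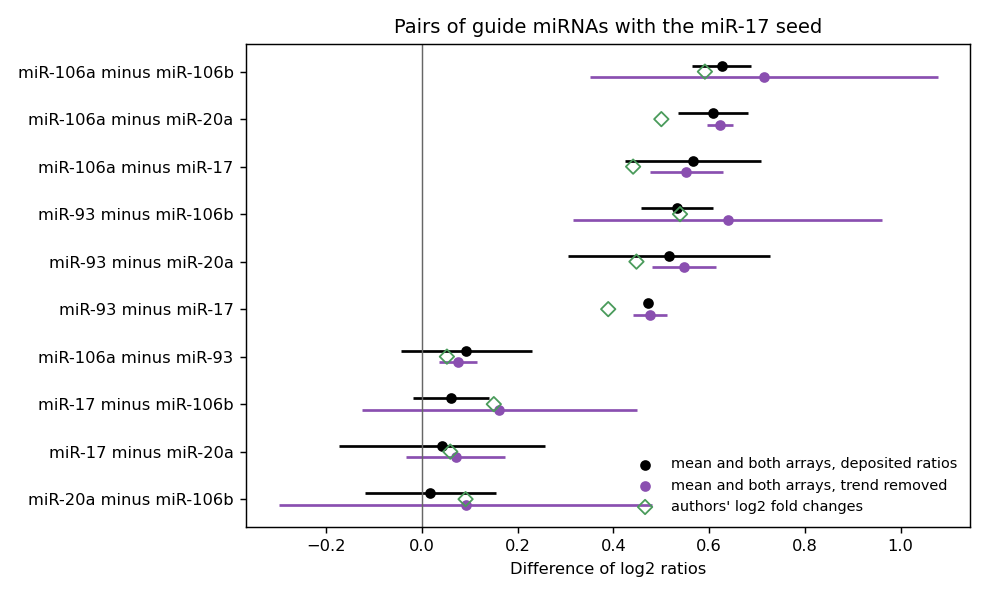
Differences of log2 ratios for the 10 pairs of guide arms with the miR-17 seed. Points are means, bars run between the 2 arrays, black for deposited ratios and purple with the intensity trend removed, and diamonds are differences of the authors' fold changes. The top 6 pairs stay right of 0 throughout, and the bars of 4 pairs at the bottom cross or lie close to 0.

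miR-106a and miR-17 differ in 1 of 23 bases, U10A, counted from 1 at the 5′ end with the base of miR-17 first. Their difference, miR-106a minus miR-17, was 0.42 on array 1 and 0.71 on array 2, with a mean of 0.57 ± 0.20, and 0.48 and 0.63 with the trend removed. The authors' fold changes differ by 0.44. Both probes were of like brightness, with average log2 intensities of 9.05 and 8.80. How far each probe also binds the other miRNA was not tested. miR-93 and miR-17 differ in 4 of 23 bases, and miR-93 was higher by 0.47 on array 1 and 0.48 on array 2.

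miR-18a, whose known targets include Ccn2, had 0.22 and 0.47 on the arrays, with a mean of 0.35 ± 0.18. With the trend removed it had 0.41 and 0.21, mean 0.31 ± 0.14, and the authors' deposited table gives 0.125. It was positive in each, at a size below 1.5-fold.

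The miR-19 miRNAs, which carry much of the cluster's oncogenic activity in mouse lymphoma, differ from each other in 1 base, C11U, counted from the 5′ end with the base of miR-19b first. miR-19a had 0.03 and 0.71, with a mean of 0.37 ± 0.48, and 0.46 and 0.09 with the trend removed, mean 0.27 ± 0.26. miR-19b, the brightest member at 10.8, had -0.40 and 0.87, with a mean of 0.24 ± 0.89, and 0.52 and -0.44 with the trend removed. miR-19a stayed positive while the arrays of miR-19b lay on both sides of 0. In the authors' deposited table miR-19a has 0.09 and miR-19b -0.17. Their difference changed sign between the arrays, with 0.42 on array 1 and -0.16 on array 2, so these arrays give it no direction.

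The miR-92 seed belongs to miRNAs that repress the proapoptotic Bcl2l11. miR-25, the last miRNA of the miR-106b-25 cluster, had 0.29 and 0.24, with a mean of 0.27 ± 0.04, and 0.30 and 0.17 with the trend removed, mean 0.23 ± 0.10. miR-92a had 0.28 and 0.03, with a mean of 0.16 ± 0.18, and 0.35 and -0.10 with the trend removed. The authors' deposited table gives 0.14 for miR-25 and 0.13 for miR-92a. Both were small and, as deposited, positive on both arrays. They were the dimmest of the guide arms, with average log2 intensities of 7.18 and 7.34.

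The 5 passenger arms, which are mostly degraded after a hairpin is cut, were mostly dim and close to 0. Average log2 intensities ran from 6.73 for miR-19a* to 7.57 for miR-17*, and 3 of the 5 lay under the limit of 6.99. The lowest was miR-106b*, with -0.13 and -0.37 on the arrays, mean -0.25 ± 0.16, and -0.16 and -0.38 with the trend removed. miR-17* had -0.10 and -0.21, mean -0.16 ± 0.08, and 0.03 and -0.39 with the trend removed. miR-106b* was negative on both arrays either way, and miR-17* was so as deposited. In the authors' deposited table miR-106b* has only -0.04, and miR-17* is the lowest passenger arm with -0.11. The others had means of -0.04 for miR-19a*, -0.01 for miR-18a* and 0.08 for miR-93*. Values near 0 of such dim probes do not show that the levels were alike. The guide arms had a median of 0.25 and the passenger arms of -0.04. Since 10 of 10 guide arms but 2 of 5 passenger arms lay above 6.99, these medians cannot separate arm from brightness. The arms did overlap in brightness, as miR-17* at 7.57 was brighter than the guide arms miR-92a (7.34) and miR-25 (7.18).

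Along the miR-17-92 polycistron the guide arms ran, from the 5′ hairpin on, 0.07, 0.35, 0.37, 0.03, 0.24 and 0.16 for miR-17, miR-18a, miR-19a, miR-20a, miR-19b and miR-92a. Their range was 0.34, beside a median technical SD of 0.41. With the trend removed the range was 0.38 and the median technical SD 0.25. A range over several means and an SD over the arrays are unlike measures. Set side by side, they do not show whether these guide arms differed beyond technical noise. miR-18a minus miR-20a was 0.65 and -0.01 on the arrays as deposited, but 0.41 and 0.34 with the trend removed. Of the 15 pairs among these guide arms, 4 had the same sign on both arrays as deposited and 8 with the trend removed, of which 3 did so in either form. Of these 3, miR-18a minus miR-17 was 0.28 ± 0.16 as deposited and 0.31 ± 0.10 with the trend removed. For miR-19a minus miR-17 the values were 0.30 ± 0.14 and 0.27 ± 0.02, and miR-19a minus miR-20a was 0.34 ± 0.17 in both. The probes of miR-19a and miR-20a have the same average log2 intensity, 9.22. Removal of the trend takes the same amount from each, so it could not alter their difference. The 9 members of both arms had a median of 0.07, which was -0.01 on array 1 and 0.31 on array 2.

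Along the miR-106b-25 cluster miR-106b, miR-93 and miR-25 had means of 0.01, 0.54 and 0.27. miR-93 minus miR-106b was 0.61 on array 1 and 0.46 on array 2, with a mean of 0.53 ± 0.11. The difference was 0.64 ± 0.46 with the trend removed, and it is 0.54 in the authors' deposited table. These neighbours, whose hairpins start 208 bp apart at their 5′ ends, were the highest and lowest guide arms of the cluster, compared after the values were seen. Their difference was positive on each array, as deposited and with the trend removed. It also exceeded the technical SD in both, which adds little, since with 2 arrays of the same sign a mean is never far below its SD. miR-93 minus miR-25 was 0.005 and 0.55 on the arrays, a mean of 0.28 ± 0.38. The cluster's 5 members had a median of 0.08.

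**Figure D3:**
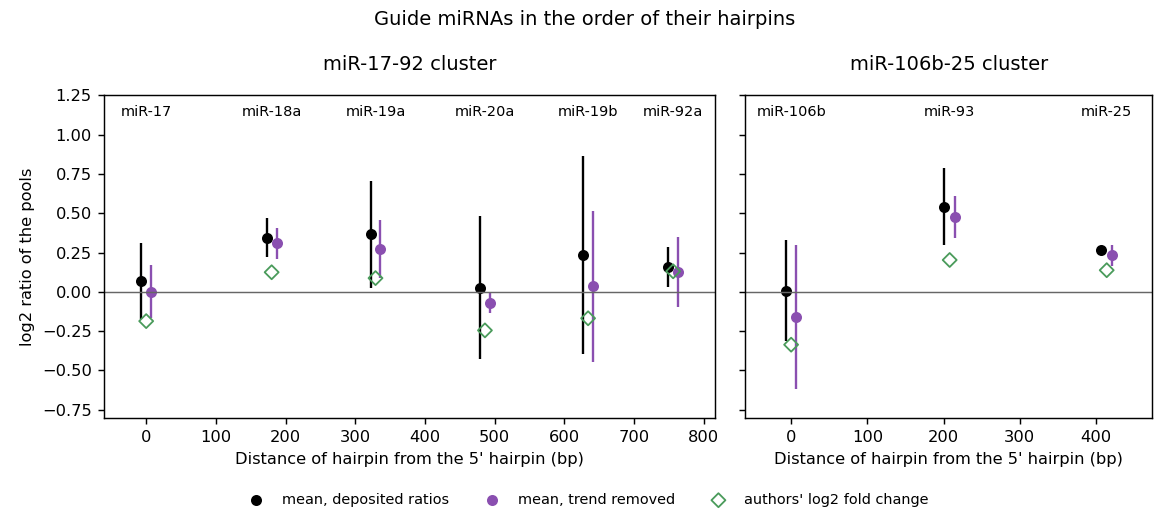
Log2 ratio of the pools for the guide arms against the distance of each hairpin from the 5′ hairpin of its cluster in bp. Black points are means of the deposited ratios, purple points with the intensity trend removed, bars run between the 2 arrays, and diamonds are the authors' fold changes. In miR-17-92 the black bars overlap along the cluster. The black bars of miR-93 and miR-106b overlap narrowly too, though their means differ by 0.53.

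Brightness moved with the gap between the arrays. Among the members the dye part, array 2 minus array 1 divided by 2, correlated with average intensity with r = 0.93 over 15 miRNAs, which share both arrays and both pools. It was 0.63 for miR-19b, the brightest, 0.46 for miR-20a and -0.03 for miR-25. Because the dyes were exchanged, this part follows the dye and not the pool. Array 2 was above array 1 for 8 of 10 guide arms, and for 75.1% of the 237 mouse miRNAs above the limit of 6.99. As deposited 5 of 15 members (33.3%) had arrays of opposite sign, beside 54.7% of all mouse miRNAs, and with the trend removed 8 of 15 (53.3%), beside 49.3%.

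**Figure D4:**
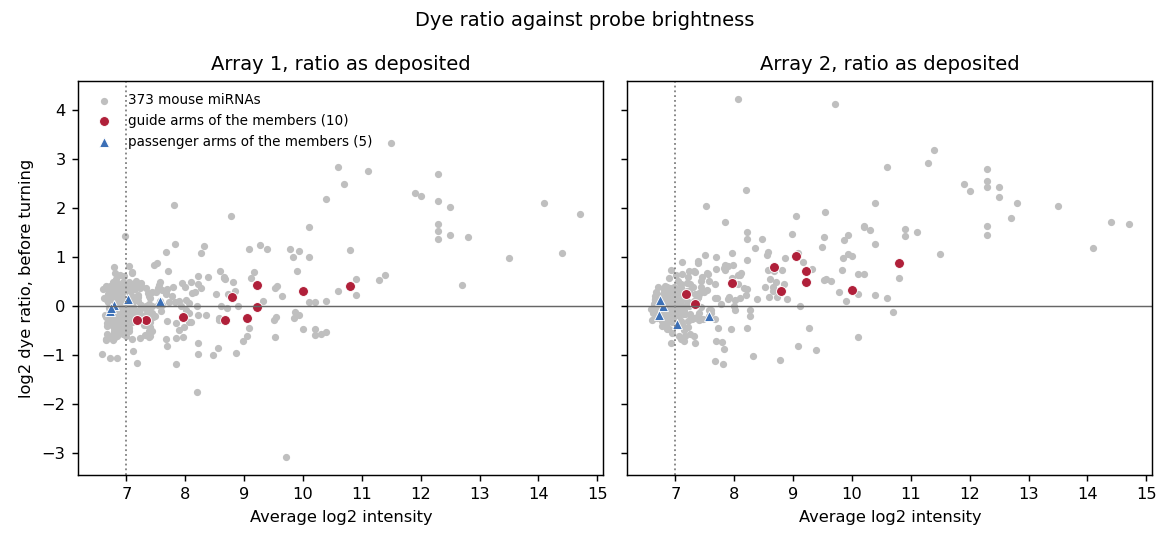
Deposited log2 dye ratio before turning, against average log2 intensity, on array 1 (left) and array 2 (right). Grey points are the 373 mouse miRNAs, red circles the 10 guide arms, blue triangles the 5 passenger arms, and the dotted line marks 6.99, the brightest probe without a fold change. Guide arms climb with brightness on both arrays, within the cloud of the other miRNAs, and passenger arms sit mostly at the dim end.

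A search of RefSeq's mature mouse miRNAs found 7 further names with a member's seed, of which 5 have a fold change on the array, miR-18b and miR-6383 being the others. None passed the rule of size. miR-20b, which has the miR-17 seed and lies in the same X-linked cluster as miR-106a, had -0.09 and -0.45, with a mean of -0.27 ± 0.26, and 0.06 and -0.67 with the trend removed. miR-106a and miR-20b, which have the hairpin of miR-18b between theirs, therefore lay on different sides in the mean. miR-363, the last miRNA of that cluster, with the miR-92 seed, had 0.69 and 0.14, a mean of 0.41 ± 0.39, but was dim, with an average log2 intensity of 6.66. miR-32, also with the miR-92 seed, had -0.47 on both arrays and -0.28 and -0.73 with the trend removed. The authors' deposited table gives it -0.37, on the side opposite miR-25 and miR-92a. The dim miR-92b and miR-367 had 0.22 ± 0.21 and 0.30 ± 0.55. With the trend removed miR-92b had -0.02 and 0.39 on the arrays, and miR-367 had 0.62 and -0.06. The authors' fold changes are -0.18 for miR-92b, opposite in sign to its mean, and 0.10 for miR-367.

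Because Myc activates miR-17-92 and is known to repress another set of miRNAs, 22 names of that set were listed, and 20 had a fold change. Their median was 0.14, beside 0.08 for all mouse miRNAs, 0.07 beside 0.02 with the trend removed, and -0.005 beside -0.02 in the authors' deposited table. On the positive side 5 of 20 passed the rule, where 8.85% of all mouse miRNAs did: miR-26a with 1.10 ± 0.71, miR-30c with 1.08 ± 1.20, and miR-30d, miR-30e and miR-30b with 0.95, 0.75 and 0.74. Of these 5, 4 are of the miR-30 family. On the opposite side 1 of 20 passed, where 3.22% of all did, miR-34a with -0.85 ± 0.56, the lowest. The highest was miR-22, with 1.26 ± 2.22, whose arrays had -0.31 and 2.82, so it did not pass as deposited. It had 0.53 and 1.60 with the trend removed, and the authors' deposited table gives 0.93. With the trend removed 4 of 20 passed on the positive and 1 on the negative side, beside 8.04% and 5.36% of all mouse miRNAs. The 4 were miR-22, miR-26a, miR-30c and miR-30d, and the 1 was miR-34a. By the authors' deposited fold changes 2 and 1 reach 1.5-fold, beside 3.75% and 5.63%, namely miR-22 and miR-26a, and miR-34a. The list was brighter than the mouse miRNAs it is set beside. Of the 20, 18 lay above 6.99, and the median average log2 intensity was 9.435, beside 7.16 for all. As deposited, with both sides counted, 18.6% of the 237 mouse miRNAs above 6.99 passed the rule, beside 12.1% of all. Setting the list beside all mouse miRNAs therefore cannot separate it from brightness. Myc itself was not analysed here.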

How the data were processed

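Total RNA was extracted with Trizol and column-purified, then labelled with a power labelling kit for locked nucleic acid miRNA arrays, per the labels. One of the tables the authors deposited has 1 log dye ratio per array for 2244 features, with medians of 0.039 and 0.040. The sources used here do not give its numerator, log base or centring. Log2 was assumed, and fold sizes from the deposited ratios, with or without the trend, rest on that. The turned mean followed the other table's log2 fold change (r = 0.83, 1677 probes). That correlation is the same for any log base, so it cannot settle the base. That second deposited table lists 2101 probes. Per the file headers, its columns are an average log2 intensity, a log2 fold change, a p-value and a signed fold change (a score here). How the authors corrected background and normalized is not given in the sources used here. Whether positive means higher or lower after interference is not settled.

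The sign of array 1 was turned, and the mean of both arrays was taken. Probes of 1 miRNA were averaged. The trend was a lowess fit (span 0.3, statsmodels 0.14.6) of each array's ratio on average intensity over the 1677 probes, tested on simulated data. Python 3.11.15, NumPy 2.4.6, pandas 2.3.3, SciPy 1.17.1 and matplotlib 3.10.9 were used. All 15 members are named; of the Myc-repressed list, those past the rule, the highest and the lowest. Members and lists were chosen with earlier results of these data known. Alternatives were other thresholds, centring, each array alone, the authors' fold changes, another span, guide arms and brightness limits. The 1586 probes for other species carry no miRNA name and were not described; 1230 of them have a fold change and entered the trend fit, that correlation and the adjustment of the authors' p-values.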

Additional observations from a re-analysis of the deposited data

How the results depend on the processing

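The count of members past 1.5-fold, 1 of 15, depended on the setting. It was 4 at a lower threshold of 0.322 on the log2 scale, which 82 of the 373 mouse miRNAs passed, and 0 at 2-fold, beside 5.90% of all. Centring each turned array on its median over the 373 mouse miRNAs, 0.005 and 0.136, gave 0 (12.1% of all) and brought miR-106a to 0.56. The count was 0 by the authors' fold changes (9.38%) and 0 with the trend removed at either span (13.4%). Single arrays gave 0 to 4, 0 on array 1 alone beside 22.8% of all and 4 on array 2 alone beside 27.9%. miR-106a itself had 0.25 on array 1 alone and 1.02 on array 2 alone. The single arrays gave medians from 0.0275 to 0.309 for all members, -0.0114 to 0.309 for miR-17-92, and 0.044 to 0.24 for miR-106b-25, whose guide arms alone gave 0.27 in place of 0.08. Every member was measured in the authors' table, so including probes without a fold change altered none of these values. Of the 15 single values, 5 changed sign in the authors' fold changes, 5 on array 1 alone, 0 on array 2 alone, 3 under centring, 2 with the trend removed at span 0.3 and 3 at span 0.5, none of them past the rule. Medians of the seed groups moved by less than the spread between the arrays under each alternative run. That spread was wide, up to 0.69 for the miR-19 seed, so this is a weak check. For single arrays the outcome was close to fixed, because the spread is computed from the same 2 arrays. No paired analysis was possible because 1 pair of pools was measured. Dim probes, among them 3 passenger arms under 6.99, limit what values near 0 can show.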
